A study of Mus musculus with 11 samples.

Results

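EMCN+ long-term haematopoietic stem cells (LT-HSCs) were set against granulocyte-monocyte progenitors (GMPs) across all genes. The comparison holds 8 of the 11 libraries of the series, 4 of EMCN+ LT-HSCs and 4 of GMPs, chosen by the population named in the labels, and the libraries of EMCN- LT-HSCs were not used. Each of 4 female C57BL/6NTac mice gave 1 library of either population, so the replicates are separate animals and each mouse is a pair. Both populations came from marrow of crushed hind leg bones from which cells with lineage markers had been removed, and live cells were sorted by flow cytometry. The stem cells were EMCN+CD150+CD48- cells within the LSK gate (lineage-negative, Sca-1+, c-Kit+). The markers used to gate GMPs are not given in the labels, which list CD16/CD32 among the stains, and name GMPs only as a well known, more differentiated population. RNA of each sort was made into stranded total RNA libraries with a kit for picogram amounts and read in pairs.

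LT-HSCs are the rare marrow cells that can rebuild all blood lineages after transplantation, and most of them rest outside the cell cycle in adult mice. GMPs lie several divisions downstream, divide often, and give rise to neutrophils and monocytes. At that stage cells are known to make large amounts of the serine proteases and peroxidase of the primary granules, under transcription factors such as PU.1 and the C/EBP proteins, while the factors and receptors of the stem cell state are switched off. Endomucin (EMCN), a sialomucin of endothelium, is also displayed on stem cells.

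The table held 54347 genes, of which 13822 passed the filter on low counts and were tested, with 99.6% of the counts. Totals were 7.72, 11.1, 7.14 and 4.39 M estimated counts in the EMCN+ LT-HSC libraries of mice 1 to 4, and 8.87, 9.19, 6.32 and 7.09 M in their GMP libraries. Levels are given as CPM, the count for a fixed total of counts per library, scaled with TMM factors, on which 1 count was worth 0.0655 to 0.217 CPM. A gene at 0 counts may therefore stand at up to 3 counts, or 0.197 to 0.652 CPM by library, and these limits cover counting error only. The first principal component of log2 CPM held 82.5% of the variance and separated the populations, and the second held 4.47%. Levels are relative to each library, and in bulk RNA fewer cells of a type and less RNA per cell cannot be told apart.

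Promoters are shown for the 4 granule genes Mpo, Elane, Prtn3 and Ctsg and for the stem cell genes Hlf and Emcn. The granule genes were lower in EMCN+ LT-HSCs, and Hlf and Emcn were higher. These stem cell genes did not have the largest differences, since 88 genes were higher by more than 8 on the log2 scale. RefSeq sequences on GRCm38.p6 run from 250 bases before the gene start to 50 bases after it. Capitals mark GAGGAAG, 1 form of a PU.1 site, searched on both strands. Other forms of the site were not searched and are not marked. Motifs of C/EBP, GATA, TATA box and E-box were searched too and are not marked. Of these, the 4 granule promoters held only a TATA box at -237 of Ctsg, and none held the C/EBP motif in the form searched. A C/EBP site of another form could have been missed, so these promoters are not shown to lack such sites.
Mpo: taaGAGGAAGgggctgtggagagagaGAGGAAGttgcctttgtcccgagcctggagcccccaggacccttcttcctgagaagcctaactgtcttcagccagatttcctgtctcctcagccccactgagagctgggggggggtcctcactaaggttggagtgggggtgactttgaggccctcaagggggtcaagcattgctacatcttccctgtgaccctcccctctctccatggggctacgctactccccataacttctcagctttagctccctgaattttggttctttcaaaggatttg
Elane: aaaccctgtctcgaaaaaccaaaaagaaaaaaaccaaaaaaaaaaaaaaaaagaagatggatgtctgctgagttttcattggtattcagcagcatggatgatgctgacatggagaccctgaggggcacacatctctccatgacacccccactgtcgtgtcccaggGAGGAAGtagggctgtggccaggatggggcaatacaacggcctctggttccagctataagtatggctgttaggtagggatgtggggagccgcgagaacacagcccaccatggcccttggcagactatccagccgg
Prtn3: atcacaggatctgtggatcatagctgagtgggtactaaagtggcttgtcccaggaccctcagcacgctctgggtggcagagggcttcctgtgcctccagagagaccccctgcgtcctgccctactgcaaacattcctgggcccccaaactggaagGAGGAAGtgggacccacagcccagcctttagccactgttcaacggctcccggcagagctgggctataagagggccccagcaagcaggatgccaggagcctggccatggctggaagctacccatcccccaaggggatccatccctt
Ctsg: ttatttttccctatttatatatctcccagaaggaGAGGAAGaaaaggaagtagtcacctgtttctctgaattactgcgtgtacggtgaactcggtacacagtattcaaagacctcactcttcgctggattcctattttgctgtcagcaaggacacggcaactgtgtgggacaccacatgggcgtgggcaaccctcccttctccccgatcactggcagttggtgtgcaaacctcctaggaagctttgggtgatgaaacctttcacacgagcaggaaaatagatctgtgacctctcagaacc
Hlf: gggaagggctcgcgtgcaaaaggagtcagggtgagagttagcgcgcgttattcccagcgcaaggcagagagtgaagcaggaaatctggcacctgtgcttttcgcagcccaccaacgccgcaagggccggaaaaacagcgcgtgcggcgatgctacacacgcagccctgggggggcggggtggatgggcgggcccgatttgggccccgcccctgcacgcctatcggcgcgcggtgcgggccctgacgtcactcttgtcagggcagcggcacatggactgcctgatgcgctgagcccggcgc
Emcn: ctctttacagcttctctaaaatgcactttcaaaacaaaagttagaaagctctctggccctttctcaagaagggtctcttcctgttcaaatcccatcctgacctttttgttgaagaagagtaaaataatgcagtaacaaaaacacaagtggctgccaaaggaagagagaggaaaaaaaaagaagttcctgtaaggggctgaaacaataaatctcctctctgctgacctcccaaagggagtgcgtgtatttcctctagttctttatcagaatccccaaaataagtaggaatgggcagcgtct
The regions are chr11:87793534-87793833 for Mpo, chr10:79886062-79886361 for Elane and chr10:79879417-79879716 for Prtn3, all on the plus strand. Those on the minus strand are chr14:56102525-56102824 for Ctsg and chr11:90390868-90391167 for Hlf, and Emcn lies on the plus strand at chr3:137340828-137341127. The RefSeq start of Prtn3 is 5191 bases from the GENCODE start of the gene, and that of Mpo 203 bases. GAGGAAG stands 2 times before Mpo, at -247 and -224, and 1 time each before Elane at -85, Prtn3 at -95 and Ctsg at -216, counted from the start. It was found in 7 of the 19 primary granule genes with a promoter in the table (36.8%), in 9 of 31 stem cell surface genes (29.0%), in 1 of 27 stem cell transcription factors (3.7%) and in 13.4% of the 9259 promoters of all tested protein-coding genes. The letters were therefore not limited to the granule genes, and no binding was measured. In the form searched, the C/EBP motif stood in 3 of the 19 primary granule genes (15.8%). It stood in 8.17% of the promoters of all tested protein-coding genes. Promoters of genes lower in EMCN+ LT-HSCs by more than 3 on the log2 scale had a median of 52.0% G and C and 7 CpG, against 61.0% and 21 over all.

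The populations differed at most genes tested. By edgeR's quasi-likelihood test at an adjusted p under 0.05, 4398 genes were higher in EMCN+ LT-HSCs (31.8% of those tested) and 4421 were lower (32.0%), so 63.8% were called. A count of calls in a list below is to be read beside these shares. With a log2 difference above 1 added, 2724 genes were higher (19.7%) and 2629 lower (19%). At the far end the balance was uneven, where 405 genes were higher and 142 were lower past a log2 difference of 5. All 4 mice shared the sign of the difference at 8537 of the 8819 called genes. The libraries of the populations did not overlap at 59.5% of the genes tested, 29.8% with every EMCN+ LT-HSC library above and 29.8% with every one below. A total of 156 tested genes had no count in any GMP library and 26 had none in any EMCN+ LT-HSC library. Such a gene passed the filter through the other population alone, so its direction was set beforehand, also where it is counted in a list below. The floor of 3 counts over a population was 0.129 CPM in GMPs and 0.0730 CPM in EMCN+ LT-HSCs, so a gene is more easily missed in GMPs. The part of depth in these counts, and in the balance past a log2 difference of 5, was not tested.

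The split depends on how the libraries are scaled. Scaling by total counts, in place of TMM factors, moved the median gene by 0.85 on the log2 scale, and 82.3% of the calls were then higher in EMCN+ LT-HSCs in place of 49.9%. All directions given here are those with TMM factors, and a group that turns with total-count scaling is named as such where it is described.

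**Figure D1:**
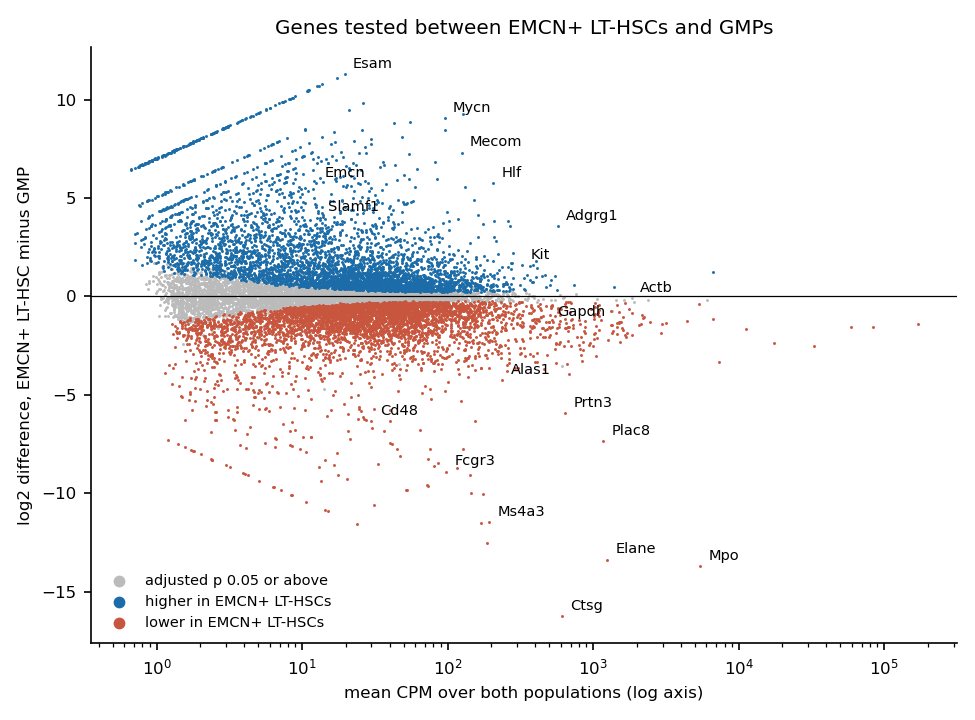
Log2 difference between EMCN+ LT-HSCs and GMPs against the mean CPM of both populations (log axis), 1 point a gene, coloured where the edgeR adjusted p was under 0.05. Calls lie on both sides of 0 (4398 higher, 4421 lower), and the slanted rows at the edges are genes with no or very few counts in 1 population, whose fitted difference is no measured size.

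The genes of the antibodies that define the EMCN+ LT-HSC gate followed it, which is a check of the labels and not a result. Ly6a, which encodes Sca-1, had 17.3, 25, 28.8 and 23.5 CPM in EMCN+ LT-HSCs and 0.297, 0, 0.652 and 0.178 CPM in GMPs. Emcn had 23.5, 26.4, 24.5 and 23.9 CPM against 0.149, 0, 1.3 and 0.534 CPM, and Slamf1, the gene of CD150, had a mean of 25.1 ± 3.79 (SD, n = 4) against 1.57 ± 0.773 CPM. Cd48 was at 0.763 ± 0.319 against 59.2 ± 10.4 CPM and Fcgr3, a gene of CD16/CD32, at 0.441 ± 0.249 against 196 ± 13 CPM. No library of a population overlapped the other at these 5 genes, as at 59.5% of all genes tested. Kit, the receptor of stem cell factor, was higher, with 488 ± 57.9 against 161 ± 23.6 CPM. Cd34, a sialomucin of progenitors, was lower in EMCN+ LT-HSCs, at 99.1 ± 12.2 against 161 ± 16.4 CPM (log2 difference -0.70 ± 0.114 SE), a direction that total-count scaling turned. Itgam, the gene of the lineage marker CD11b, was read in both lineage-depleted populations, with 16.2, 19.7, 10.9 and 6.98 CPM in EMCN+ LT-HSCs and 26, 26.9, 22.8 and 17.8 CPM in GMPs, which overlapped. Itgam was called lower (edgeR adjusted p = 0.0225), but total-count scaling turned it, and the adjusted p was 0.11 without the EMCN+ LT-HSC library of mouse 3 and 0.0619 or 0.0578 without the GMP library of mouse 1 or 2. Of the 3 sort genes not tested, Cd3e and Ly6g, markers of T cells and neutrophils, had no count in any of the 8 libraries.

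Transcription factors of the stem cell state were higher almost without exception. Of 36 tested, 35 were higher and none lower, with a median log2 difference of 2.79 against -0.01 over all genes tested. Hlf, a PAR bZIP factor used to mark stem cells, had 346, 412, 417 and 450 CPM in EMCN+ LT-HSCs and 6.54, 8.77, 7.17 and 7.12 CPM in GMPs (log2 difference 5.77 ± 0.142 SE, edgeR adjusted p = 7.07e-16). Mecom, which encodes the zinc finger factor EVI1, had 226, 265, 251 and 251 CPM against 2.08, 0.94, 0.869 and 2.14 CPM. Both genes were far apart in every mouse, with little spread among the stem cell libraries. Meis1, a partner of HOX proteins, had 326 ± 33.1 against 24.9 ± 4.12 CPM, and Msi2, an RNA-binding protein kept on this list, 368 ± 31.2 against 45.5 ± 5.1 CPM.

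Several factors on the list were all but unread in GMPs. Nkx2-3, a homeobox gene, had 2120 counts over the EMCN+ LT-HSC libraries and 1 over the GMP libraries, a 1204-fold difference with a counting interval from 216 to 47579 (95%, exact). Tcf15, a bHLH gene linked to stem cell rest, had 690 counts against 0, which makes it at least 129-fold higher against a floor of 3 counts over the GMP libraries. Hoxb5 had 141 counts against 1 (80.1-fold, 14.1 to 3185). The smallest differences on the list were at Runx1, 132 ± 10.2 against 103 ± 15.7 CPM (log2 difference 0.35 ± 0.114 SE, edgeR adjusted p = 0.0123), and at Lyl1, with 49.6 ± 5.47 against 41 ± 3.92 CPM, which did not pass the test by edgeR but passed it by DESeq2 (adjusted p = 0.0227) and with RLE factors (0.02). Without the GMP library of mouse 4 the edgeR adjusted p at Runx1 was 0.06, and with length offsets its difference turned to -0.28. Such offsets also lowered the medians of the groups of longer genes, as given below.

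The MYC genes went opposite ways. Mycn had 202, 188, 202 and 172 CPM in EMCN+ LT-HSCs and 0.297, 0.47, 0.435 and 0.178 CPM in GMPs (log2 difference 9.06 ± 0.193 SE, edgeR adjusted p = 1.97e-16). Myc had 113, 104, 105 and 83.9 CPM against 184, 146, 167 and 123 CPM (log2 difference -0.61 ± 0.127 SE, edgeR adjusted p = 0.000387). Libraries overlapped at neither gene, as at 59.5% of all genes tested, and with total-count scaling the direction at Myc turned. Mycn was named after its values were seen.

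Stem cell surface and receptor genes gave 36 higher and 3 lower of 40 tested, with a median log2 difference of 4.35, or 4.06 with genes at 0 set to their bound. Fgd5, a guanine nucleotide exchange factor gene used as a stem cell reporter, had 109 ± 13.4 against 0.226 ± 0.261 CPM. Procr, which encodes EPCR, had 33.7, 36.9, 36.8 and 28.8 CPM in EMCN+ LT-HSCs and 0, 0.157, 0.217 and 0.712 CPM in GMPs. The highest GMP library at Procr was that of mouse 4, and it lay far below every EMCN+ LT-HSC library. Esam, an adhesion molecule of endothelium and stem cells (chr9:37528078-37538319), had 1664 counts over the EMCN+ LT-HSC libraries and 0 over the GMP libraries and was at least 305-fold higher.

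Vwf and Mmrn1, clotting and platelet genes that are also read in stem cells, had 121 ± 31 and 253 ± 41.4 CPM in EMCN+ LT-HSCs and 1.33 ± 0.903 and 0.405 ± 0.568 CPM in GMPs. The endothelial receptor gene Tek, whose product binds angiopoietin 1, had 48 ± 8.5 against 1.65 ± 0.594 CPM, and its ligand gene Angpt1 had 484 ± 30.5 against 33.9 ± 12.9 CPM. Receptor and ligand were therefore both higher in the same population. The 3 genes of the list that were lower were Cxcr4, the receptor of CXCL12 (22.7 ± 3.37 against 75.8 ± 5.61 CPM), Cd63, a tetraspanin of granules (69.2 ± 2 against 168 ± 18.3 CPM), and Gda, guanine deaminase (45.5 ± 7.82 against 101 ± 17 CPM). Libraries did not overlap at these 3 genes, as at 59.5% of all genes tested. Gda did not pass the test with total-count scaling (edgeR adjusted p = 0.0681).

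Genes linked to rest and to exit from the cell cycle were higher at 21 of 30 and lower at 4, with a median of 1.51. Txnip, an inhibitor of thioredoxin, had 472, 513, 477 and 511 CPM in EMCN+ LT-HSCs and 47.3, 32.3, 41.1 and 43.1 CPM in GMPs. Cdkn1c, which encodes the inhibitor p57, had 1163 counts against 2 (330-fold, 91.2 to 2730). The inhibitors of the cell cycle did not move as 1 group. Cdkn1b (p27) had 45.4 ± 3.73 against 28.7 ± 1.01 CPM and was higher, whereas Cdkn1a (p21) had 0.79 ± 0.338 against 2.5 ± 1.09 CPM and Cdkn2c (p18) 3.38 ± 1.44 against 8.43 ± 2.99 CPM and both were lower. With total-count scaling neither passed the test (edgeR adjusted p = 0.115 at Cdkn1a and 0.271 at Cdkn2c). Klf4 and Btg2, the other genes of the list that were lower, had 1.2 ± 0.674 and 4.74 ± 0.43 CPM against 11.5 ± 4.44 and 11.6 ± 3.45 CPM, and Btg2 did not pass the test with total-count scaling (edgeR adjusted p = 0.128). Foxo3, a factor of stem cell upkeep, was higher, with 191 ± 24.9 against 56.5 ± 3.37 CPM.

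Factors of the granulocyte-monocyte lineage were lower at 15 of 26 and higher at 6, with a median of -0.69 that total-count scaling turned to 0.16. The C/EBP and IRF8 genes carried the large differences. Cebpa had 3.82, 3.01, 2.7 and 2.75 CPM in EMCN+ LT-HSCs and 99.5, 88, 81.9 and 81.7 CPM in GMPs (log2 difference -4.82 ± 0.149 SE, edgeR adjusted p = 1.88e-14). Cebpe, which acts late in granule formation, had 0.157 ± 0.187 against 23 ± 2.41 CPM, and Irf8, a monocyte factor, 4.11 ± 0.424 against 150 ± 24 CPM. PU.1 differed less: Spi1 had 27.9, 35.4, 38 and 29 CPM against 109, 102, 89.5 and 85.3 CPM. Myb was well read in both populations, at 515 ± 12.2 and 881 ± 112 CPM, a difference whose direction total-count scaling turned. Egr1, a factor of monocyte development and of stem cell rest, stood against the list with 47.3 ± 12.9 against 0.859 ± 0.603 CPM.

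The primary granule genes, which carry the killing enzymes of neutrophils, were far lower in EMCN+ LT-HSCs. Of 24 tested, 22 were lower in EMCN+ LT-HSCs and none higher, with a median of -4.50. Mpo, myeloperoxidase, had 0.838, 0.721, 0.104 and 2.02 CPM in EMCN+ LT-HSCs and 12185, 11189, 9138 and 11053 CPM in GMPs. Elane, neutrophil elastase, had 0.651, 0, 0.208 and 0 CPM against 2426, 2558, 2369 and 2664 CPM. Ctsg, cathepsin G, had 0 counts in the EMCN+ LT-HSC libraries and 28545 over the GMP libraries, and was at least 16667-fold lower. These levels place the stem cell libraries at or near the floor for 3 of the 4 genes whose promoters are printed above. Prtn3, proteinase 3, was the exception, with 18.2, 19.5, 22.7 and 23 CPM in EMCN+ LT-HSCs against 1085, 1396, 1318 and 1235 CPM (log2 difference -5.92 ± 0.136 SE, edgeR adjusted p = 2.65e-16). Plac8, a small protein of myeloid progenitors, was likewise read in stem cells, at 14 ± 4.85 against 2333 ± 244 CPM, while Ms4a3, a membrane protein that marks GMPs, had 5 counts over 4 libraries there and 386 ± 12.6 CPM in GMPs. Ctsc, a lysosomal protease that activates the granule proteases, did not pass the test, at 42.3 ± 6.95 against 41.7 ± 7.62 CPM, but was called higher with total-count scaling (0.88).

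**Figure D2:**
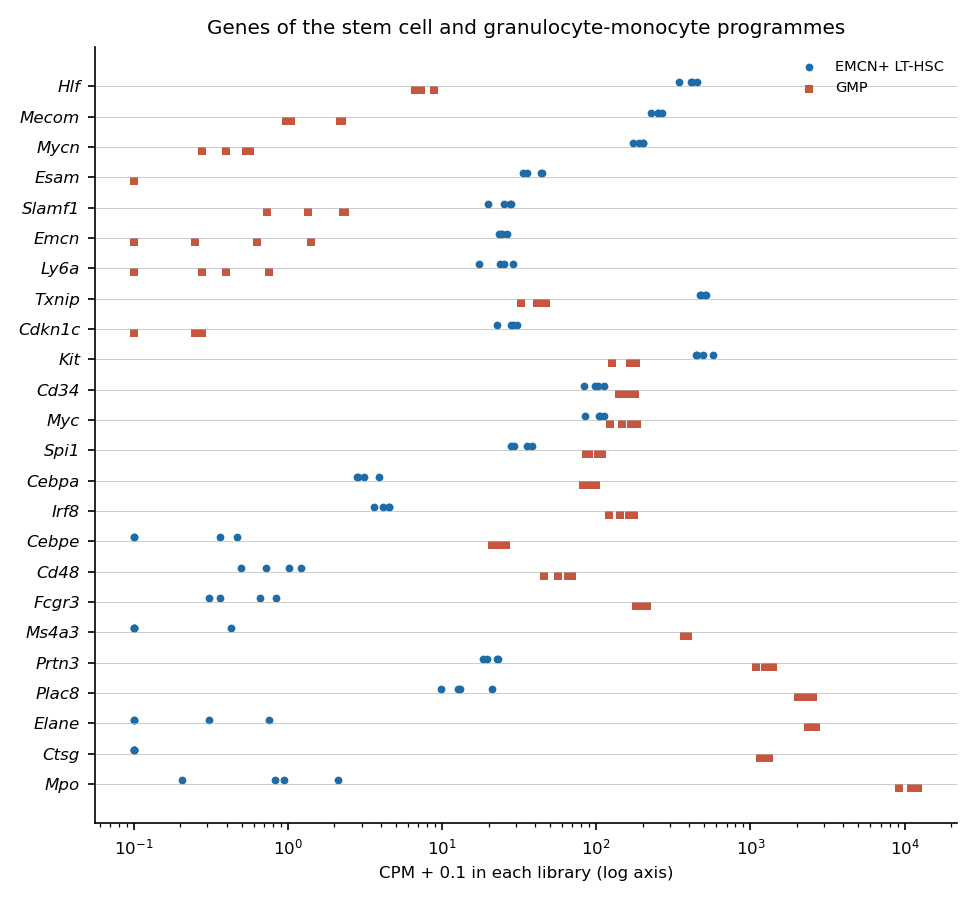
CPM + 0.1 in each library (log axis) for 24 genes, with the 4 EMCN+ LT-HSC libraries as circles and the 4 GMP libraries as squares, so that a point at 0.1 is a count of 0. The stem cell genes at the top and the granule genes at the bottom do not overlap, as at 59.5% of all genes tested. Kit, Cd34 and Myc lie closer together but do not overlap either.

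Receptors of the myeloid lineage were lower at 30 of 40 and higher at 4, with a median of -1.93. Csf1r, the receptor of macrophage colony-stimulating factor, had 0.58 ± 0.47 against 47.9 ± 1.89 CPM. The receptor genes of the other colony-stimulating factors differed less, with 27.6 ± 1.65 against 59.3 ± 5.36 CPM at Csf3r (not called with total-count scaling, edgeR adjusted p = 0.101), 8.7 ± 1.71 against 22.2 ± 2.34 CPM at Csf2ra and 20.8 ± 1.46 against 75.6 ± 11.5 CPM at Csf2rb. Clec12a, a C-type lectin, and Tyrobp, the adaptor DAP12, had 0.497 ± 0.507 and 0.403 ± 0.321 CPM against 285 ± 21.3 and 88.8 ± 14.9 CPM. Among the genes that were higher, Flt3, a receptor of early progenitors, had 18.1 ± 4.84 against 6.22 ± 1.9 CPM, and Cd38 3.36 ± 1.22 against 0.156 ± 0.211 CPM.

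Beyond these lists, the 15 protein-coding genes with the largest fitted difference and at least 10 CPM in the higher population were picked in each direction. All 15 that were higher had no count in GMPs, and Nrk, Klhl4, Evc2, Slc16a12 and Lurap1 followed Esam, at least 270, 212, 204, 198 and 173-fold higher. Evc2 encodes a part of the cilium and Ephb4, at least 115-fold higher, a receptor of venous endothelium. On the lower side stood Atp8b4, a phospholipid flippase, with 2 counts in EMCN+ LT-HSCs and 8788 in GMPs (7737-fold, 2141 to 63894), and Clec5a, at least 648-fold lower. Gzmb, granzyme B, best known from cytotoxic lymphocytes, had 0 counts in EMCN+ LT-HSCs and 30.6, 17.4, 41.7 and 31.1 CPM in GMPs. F13a1, Ly6c2 and Hp, known from monocytes and neutrophils, had 351 ± 35, 338 ± 55.2 and 104 ± 14 CPM in GMPs and no more than 1.02 CPM in any EMCN+ LT-HSC library. Reads of Ly6c2 and of its close copy Ly6c1 may have been divided between the genes.

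Genes of DNA replication and of mitosis were lower with few exceptions. Among S phase genes 40 of 43 were lower and 1 higher (median -1.18), and among genes of G2 and M phase 43 of 53 were lower and 1 higher (median -1.37). Rrm2, a subunit of ribonucleotide reductase, had 15.5, 10.6, 10.7 and 8.45 CPM in EMCN+ LT-HSCs and 110, 132, 84.5 and 94.3 CPM in GMPs. Mki67, the Ki-67 antigen, had 170, 202, 89.7 and 136 CPM against 255, 411, 281 and 393 CPM, and Pcna 95.5 ± 12.9 against 224 ± 16.5 CPM. The populations did not overlap at these 3 genes, as at 59.5% of all genes tested. The spread among mice was wide at Mki67, which did not pass the test with total-count scaling (adjusted p = 0.327 by edgeR). With total-count scaling both medians stayed below 0, and 21 of the S phase genes and 24 of the G2 and M phase genes were called lower.

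Cyclins and kinases of G1 did not share 1 direction, with 15 lower and 8 higher of 27 and a median of -0.70 that total-count scaling turned to 0.15. The D cyclins were higher in EMCN+ LT-HSCs: Ccnd1 had 28.1 ± 2.72 against 4.82 ± 3.88 CPM, Ccnd2 348 ± 22 against 122 ± 11 CPM and Ccnd3 66 ± 4.37 against 39.6 ± 2.81 CPM. Their kinase Cdk6 was lower, with 89.2, 100, 90 and 126 CPM against 476, 467, 509 and 499 CPM (log2 difference -2.27 ± 0.119 SE, edgeR adjusted p = 1.44e-11). Ccne2, the E cyclin of S phase entry, had 7.44 ± 1.74 against 78.5 ± 6.1 CPM. With length offsets Ccnd3 did not pass the test (log2 difference 0.21, edgeR adjusted p = 0.0794).

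Histone genes were lower at 58 of 61 and higher at 2, with a median of -3.03. H3c8 had 25.9, 16.2, 7.38 and 10.8 CPM in EMCN+ LT-HSCs and 159, 355, 255 and 270 CPM in GMPs. The 2 genes that were higher were the replication-independent linker histones H1f0, 78.1 ± 5.88 against 17.5 ± 2.91 CPM, and H1f10, 21.3 ± 1.72 against 6.83 ± 0.99 CPM. Histones took 0.536 ± 0.204% of the counts in EMCN+ LT-HSCs and 2.01 ± 0.635% in GMPs (n = 4 each, exact permutation p = 0.0286, two-sided, the smallest that 4 against 4 allows). This permutation, here and for the other shares, took the libraries as unpaired, and no share was tested within mice. Near-identical histone genes can share reads, so single members are less certain than the group. The molecule is labelled as polyA RNA although the kit takes total RNA, and replication-dependent histone transcripts carry no poly(A) tail.

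Genes of protein synthesis were mostly lower. Cytosolic ribosomal protein genes were lower at 79 of 82 and higher at none (median -1.39), and mitochondrial ribosomal protein genes at 74 of 78 and none (median -1.42), the latter at 49 with total-count scaling. Rpl41 had 265, 221, 221 and 183 CPM against 1351, 1601, 1410 and 1218 CPM, while Rpl23, at 609 ± 17.4 and 641 ± 33 CPM, did not pass the test. With length offsets (edgeR adjusted p = 0.00256) and with total-count scaling (8.09e-06) Rpl23 was called higher. As a share of all counts, cytosolic ribosomal proteins took 5.86 ± 0.558% in EMCN+ LT-HSCs and 8.11 ± 0.167% in GMPs (n = 4 each, exact permutation p = 0.0286). Genes of ribosome assembly were lower at 31 of 44 and higher at 1 (median -0.54), and translation factors lower at 34 of 51 and higher at 4 (median -0.51), but total-count scaling turned these medians to 0.31 and 0.34. Eef2, an elongation factor, was higher at 1616 ± 122 against 1164 ± 92.8 CPM. Secretory pathway genes were lower at 40 of 42, with none higher and a median of -1.39. Calr, calreticulin of the endoplasmic reticulum, had 510 ± 91.2 against 2574 ± 353 CPM. Proteasome genes were lower at 43 of 48 and higher at 1 (median -1.06), and with total-count scaling at 23 and 11.

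Genes of the respiratory chain were also lower. Of 79 oxidative phosphorylation genes of the nucleus 76 were lower and none higher, with a median of -1.93. Uqcrq, of complex III, had 32.9, 20.7, 23.6 and 17.4 CPM in EMCN+ LT-HSCs and 252, 285, 288 and 251 CPM in GMPs, whereas Ndufs1, the largest subunit of complex I, did not pass the test at 43.3 ± 1.57 and 46.5 ± 4.95 CPM. Ndufs1 was called lower with length offsets (-0.60) and higher with total-count scaling (0.75). The 13 protein genes of the mitochondrial genome gave 11 lower and 1 higher (median -1.42), but with length offsets 6 lower and 4 higher (median -0.35). The gene that was higher was mt-Nd6, with 177 ± 35.1 against 141 ± 11.4 CPM, the single protein gene of the light strand. The log2 difference at mt-Nd6 was 0.33 ± 0.128 SE (edgeR adjusted p = 0.0342), and with the mouse as a block the edgeR adjusted p was 0.0561. Without the EMCN+ LT-HSC library of mouse 4 it was 0.0513, and without the GMP library of mouse 2, 3 or 4 it was 0.0784, 0.0782 or 0.119. Mitochondrial ribosomal RNA took 18 ± 4.06% of the counts in EMCN+ LT-HSCs and 27.6 ± 1.28% in GMPs (n = 4 each, exact permutation p = 0.0286).

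**Figure D3:**
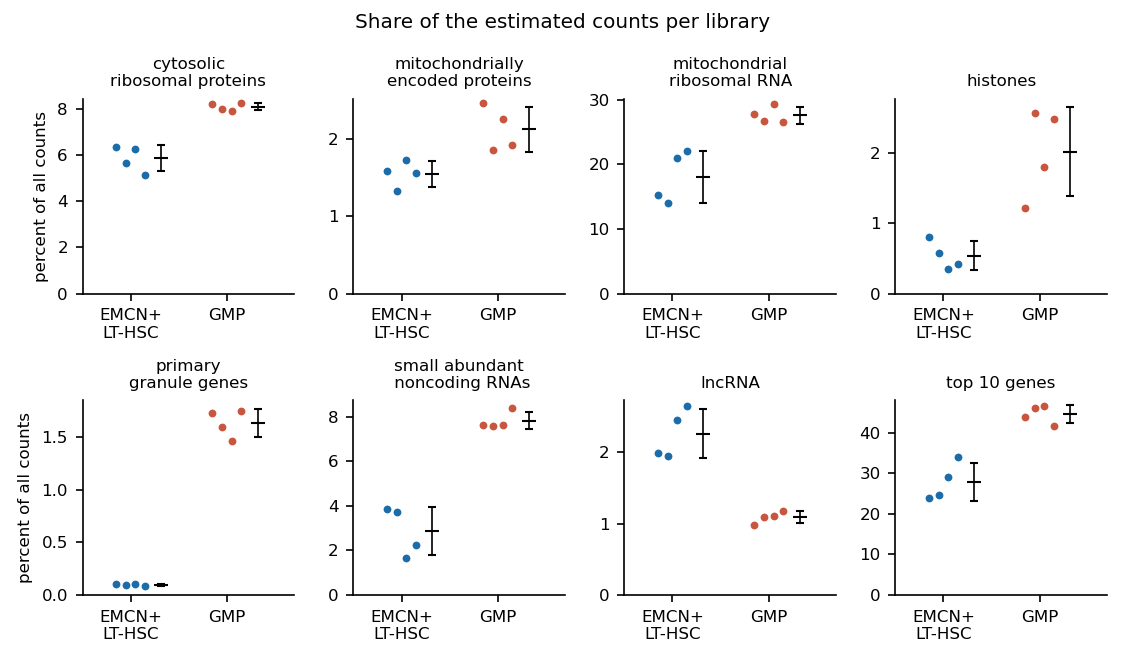
Percent of all estimated counts taken by 8 classes in each library, with the mean and SD beside the 4 points of a population. In every class the populations do not overlap (exact permutation p = 0.0286, the smallest possible, also after adjustment over the 8 classes), and the lncRNA share alone is higher in EMCN+ LT-HSCs (2.26 ± 0.344% against 1.09 ± 0.0803%).

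Other metabolic lists were mixed, and their medians turned with total-count scaling. Tricarboxylic acid cycle genes were lower at 21 of 26 and higher at 1 (median -0.71, turned to 0.14). Glycolysis genes were lower at 15 and higher at 9 of 26 (median -0.54, turned to 0.31). The share that was higher, 34.6%, was near the 31.8% of all genes tested. Members of this pathway stood on either side. The hexokinase gene Hk3 had 14.4 ± 1.44 against 157 ± 4.79 CPM and Pgam1 47 ± 7.76 against 281 ± 14.5 CPM, while the aldolase gene Aldoc had 13.3 ± 2.13 against 0.285 ± 0.32 CPM and the glucose transporter gene Slc2a3 80.3 ± 4.66 against 11 ± 1.87 CPM. Nucleotide synthesis genes were lower at 25 of 32 and higher at 1 (median -0.81, turned to 0.04). Fatty acid oxidation genes gave 7 higher and 7 lower of 23 (median -0.07, turned to 0.78). That is 30.4% each way, near the 31.8% higher and 32.0% lower over all genes tested. In haem synthesis, where 8 of 15 were lower and 1 higher (median -0.46, turned to 0.39), Alas1, the rate-limiting enzyme outside red cells, had 28.8, 24.2, 22.6 and 19.8 CPM in EMCN+ LT-HSCs and 502, 484, 405 and 418 CPM in GMPs. MPO itself is a haem protein.

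The direction of a gene went with its exon length. This is the number of bases covered by any annotated exon of the gene, and it can exceed the length of each single transcript. Protein-coding genes of the nucleus were divided by exon length into 5 groups of equal size. In the shortest group, with a median of 1842 bases, 19.7% of genes were higher and 52.3% lower, with a median log2 difference of -0.57 that total-count scaling turned to 0.28. In the longest, with a median of 10167 bases, 50.1% were higher and 18.9% lower, with a median of 0.34. Ribosomal protein, oxidative phosphorylation and histone genes are short, with median exon lengths of 1776, 1718 and 539 bases, and the part of length in their differences was not tested by this division. With offsets for the length trend in the fit, an alternative added after these values were seen, their medians were -0.93, -1.24 and -1.14, and 66, 72 and 44 of their members were called lower. With these offsets 7 ribosomal protein, 2 oxidative phosphorylation and 2 histone genes were called higher. The offsets also moved the medians of length groups 3, 4 and 5, from the middle to the longest, to -0.18, -0.23 and -0.26. A lower value with offsets is therefore to be read beside these medians.

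Short noncoding RNAs stood on the same side. Of 163 snoRNA genes 94 were lower and none higher, of 51 snRNA genes 32 and none, and of 447 processed pseudogenes 176 were lower and 20 higher, with a median of -0.77 that total-count scaling turned to 0.078. Reads of a processed pseudogene cannot be told apart with certainty from those of its parent gene, often a ribosomal protein gene. The small abundant noncoding RNAs, such as the 7SL and 7SK genes, took 2.87 ± 1.09% of the counts in EMCN+ LT-HSCs and 7.82 ± 0.388% in GMPs (n = 4 each, exact permutation p = 0.0286). Long noncoding genes gave 169 higher and 131 lower of 668, a smaller share of calls than the 63.8% over all genes. Their median level was 2.94 CPM against 17.3 CPM over all genes tested, and the part of level in this share was not tested.

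**Figure D4:**
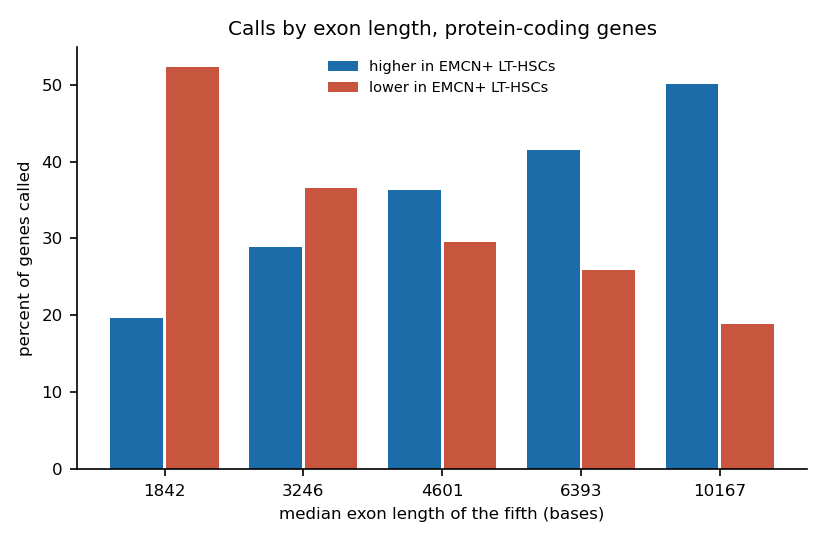
Percent of protein-coding genes of the nucleus called higher or lower in EMCN+ LT-HSCs, by exon length in 5 groups of equal size, each marked by its median length in bases. The percent higher rises from 19.7 to 50.1 and the percent lower falls from 52.3 to 18.9 from the shortest to the longest group.

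Interferon response genes were higher at 31 of 39 and lower at 2, with a median of 1.81. Ifit3 had 11.8, 15.5, 20.2 and 13.4 CPM in EMCN+ LT-HSCs and 0, 0.313, 0 and 0.534 CPM in GMPs. Gbp4, a guanylate-binding protein, had 25.5, 36.6, 36.4 and 21.9 CPM against 0, 0.157, 0 and 0.89 CPM, Oasl2 90.7 ± 15.5 against 6.68 ± 0.915 CPM, and Irf7, a factor that amplifies the response, 29.7 ± 7.83 against 3.59 ± 1.01 CPM. No GMP library reached the lowest EMCN+ LT-HSC library at these 4 genes, as at 29.8% of all genes tested. The 2 genes that were lower, Psmb8 and Psmb9, are subunits of the immunoproteasome and total-count scaling turned both.

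Class I antigen presentation divided in the same manner, with 13 of 20 higher and 6 lower (median 0.60). Class I heavy chains and their activator were higher, with 600 ± 73.3 against 219 ± 16.1 CPM at H2-K1, 117 ± 14.5 against 16.2 ± 2.84 CPM at H2-Q6 and 87 ± 5.73 against 23.8 ± 4.86 CPM at Nlrc5. The proteasome activator gene Psme2 was lower, at 33.6 ± 4.84 against 139 ± 7.18 CPM. H2-Q6 has near-identical copies whose reads may have been shared. Class II genes were also higher, with 15.7 ± 3.49 against 1.94 ± 0.973 CPM at H2-Aa and 38.5 ± 9.95 against 4.91 ± 2.88 CPM at Cd74, the invariant chain.

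Immediate early genes, which respond within minutes to stimuli and to handling of cells, were higher at 17 of 27 and lower at 4 (median 1.21). Jun had 169, 149, 81.1 and 260 CPM in EMCN+ LT-HSCs and 82.2, 153, 58.2 and 147 CPM in GMPs and did not pass the test (edgeR adjusted p = 0.325), but passed it with the mouse as a block (0.0134). Dusp1, a phosphatase of the MAP kinases, had 46.6, 39.9, 27.4 and 73.8 CPM against 3.12, 9.87, 2.17 and 8.54 CPM and was higher in every mouse. The summed CPM of the list ran from 576 to 1032 in EMCN+ LT-HSCs and from 319 to 553 in GMPs, lowest in mouse 3 in both.

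Genes of TGF-beta and BMP signalling, which is known to hold stem cells at rest, were higher at 22 of 26 and lower at 3, with a median of 1.61. Tgfbr2, the ligand-binding receptor, had 47.9 ± 3.51 against 15.6 ± 4.36 CPM, the effector Smad3 77.6 ± 7.72 against 25.4 ± 7.89 CPM and the inhibitor Smad7 30.6 ± 7.25 against 10.9 ± 3.26 CPM. The 3 that were lower were the target genes Id1 and Id2, with 0.689 ± 0.427 and 1.88 ± 0.87 CPM against 3.11 ± 0.761 and 7.95 ± 2.87 CPM, and the ligand gene Tgfb1. Notch genes were higher at 10 of 19 and lower at 3 (median 0.45), and with total-count scaling at 16 and 1, with 214 ± 48.6 against 63.7 ± 6.86 CPM at the receptor gene Notch2 and 1.47 ± 0.487 against 79.3 ± 9.4 CPM at Dtx4, a ubiquitin ligase of the pathway.

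Adhesion and migration genes gave 22 higher and 19 lower of 48 (median 0.05). Among those that were higher were the junction molecule genes F11r and Jam3, with 25.4 ± 2.61 against 0.217 ± 0.435 CPM at F11r and 665 counts against 1 at Jam3 (378-fold, 67.6 to 14940). Among those that were lower were the integrin gene Itgal and the adhesion molecule gene Vcam1, with 2.88 ± 0.695 against 46.8 ± 4.43 CPM at Itgal and 3.06 ± 1.16 against 22.4 ± 5.19 CPM at Vcam1. Itga1 and Nrp1 were also lower, at 0.569 ± 0.417 and 0.233 ± 0.23 CPM against 22.4 ± 3.37 and 11.1 ± 2.65 CPM.

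Genes of other blood lineages were read in EMCN+ LT-HSCs to differing extents. Megakaryocyte and platelet genes were higher at 15 of 22 and lower at 2 (median 1.90). Selp, P-selectin, had 14.4 ± 2.45 against 1.54 ± 0.693 CPM and Zfpm1, the GATA cofactor FOG1, 193 ± 27.9 against 13.4 ± 2.44 CPM. Pf4, a platelet chemokine, was at 2.8 ± 1.22 against 0.752 ± 0.569 CPM. Lymphoid priming genes were higher at 15 of 21 and lower at 4 (median 1.07), with 246 ± 24.4 against 66 ± 8.84 CPM at Bcl11a and 782 counts against 2 at Gata3 (222-fold, 61.3 to 1837). Satb1 and Runx3 were lower, at 17.7 ± 3.65 and 12.4 ± 0.357 against 45.3 ± 7.53 and 42.4 ± 3.85 CPM.

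Erythroid genes were lower at 6 of 13 and higher at 4, and their median of -0.90 moved to -0.05 with total-count scaling and to 0.08 with length offsets. The share that was higher, 30.8%, was near the 31.8% of all genes tested. Hbb-b1, adult beta globin, had 0.745, 1.05, 0.312 and 2.2 CPM in EMCN+ LT-HSCs and 3.27, 31, 14.1 and 3.74 CPM in GMPs, and passed the test by edgeR (adjusted p = 0.0128) but not by limma-voom (0.0679). Car2, carbonic anhydrase 2, was on the other side, with 391 ± 35 against 27.2 ± 8.43 CPM. Basophil, eosinophil and mast cell genes were lower at 12 of 13 (median -7.01), with 0.425 ± 0.292 against 82.4 ± 28 CPM at Cpa3, 0.596 ± 0.654 against 59.8 ± 3.35 CPM at Prg2 and 0 against 17.1 ± 1.91 CPM at Mcpt8, a basophil protease that was at least 235-fold lower.

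Markers of mature and non-blood cells were checked in both populations. Monocyte and macrophage genes were lower at 12 of 16 and higher at 1 (median -3.60), and summed to 46.4 to 56.5 CPM in EMCN+ LT-HSCs and 995 to 1218 CPM in GMPs. Mature neutrophil genes summed to 42.4 to 53.1 CPM in EMCN+ LT-HSCs, most of it Padi4 (43.4 ± 4.78 CPM, against 6.39 ± 1.6 in GMPs), and to 196 to 625 CPM in GMPs, highest in mouse 2. S100a8 had 86.1, 239, 128 and 136 CPM in GMPs and at most 0.416 CPM in EMCN+ LT-HSCs, and the part of mature neutrophils in the differences was not tested. B cell markers gave 3 tested genes of 19, 1 higher (log2 difference 6.77) and 2 lower. Cd79a had 1 and 6 counts over the 4 libraries of EMCN+ LT-HSCs and GMPs. Ighm had 0.682 ± 0.279 against 54 ± 13.2 CPM. Of 23 T and NK cell markers 8 were tested, of which 5 were higher and 2 lower (median 2.73, from -10.9 to 7.58). The whole list summed to 45.6 to 59.7 CPM in EMCN+ LT-HSCs and 147 to 179 CPM in GMPs. Cd3e, Zap70, Klrd1, Ncr1 and Cd2 had no count in any of the 8 libraries. Of 19 stromal and bone markers 4 were tested.

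Endothelial markers were tested at 15 of 26, of which 11 were higher in EMCN+ LT-HSCs and 2 lower, with a median of 5.03 (4.87 with genes at 0 set to their bound). The list includes Emcn, Esam, Tek, Tie1 and Robo4, which stem cells are also known to read. Cdh5, VE-cadherin, had 30 counts over the 4 EMCN+ LT-HSC libraries, Cldn5 45, Plvap 8 and Lyve1 0. Kdr, a VEGF receptor, had 312 counts against 3 (59.1-fold, 20 to 288), while Flt1, another, was lower at 0.409 ± 0.491 against 8.7 ± 0.813 CPM. The summed list ran from 313 to 387 CPM in EMCN+ LT-HSCs and from 82.8 to 97.5 CPM in GMPs.

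Imprinted genes were higher at 20 of 22 and lower at none, with a median of 5.28, or 4.10 with genes at 0 set to their bound. Of the 22 tested, 8 had no count in any GMP library and passed the filter through EMCN+ LT-HSCs alone, so they could only be higher. Igf2, a fetal growth factor, had 293 counts over the EMCN+ LT-HSC libraries and none in GMPs, and Igf2r, the receptor that clears it, had 58.5 ± 8.96 against 2.95 ± 1.36 CPM. Grb10, an inhibitor of growth factor signals, had 152 ± 17.2 against 18.3 ± 2.51 CPM. The long noncoding RNAs Meg3 and Rian of the Dlk1 locus had 5.3, 9.43, 11.3 and 14.5 CPM and 7.72, 17.4, 24.6 and 15.4 CPM in EMCN+ LT-HSCs and 0 in all GMP libraries, and H19 had 10.3 ± 2.49 against 0.192 ± 0.18 CPM. With Peg13 and Gimap1os, they were the 5 long noncoding RNAs with the largest difference on the higher side among those with a given name and at least 10 CPM, and 1810073O08Rik, which has no given name, was at least 140-fold higher. On the lower side, Snhg6, a snoRNA host gene, had 5.27 ± 0.722 against 24.8 ± 4.72 CPM.

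Zinc finger genes named Zfp and a number, most of them little studied, were higher at 138 of 324 and lower at 33 (median 0.35), with length offsets 95 and 72 and with total-count scaling 275 and 6. Polycomb and DNA methylation genes gave 15 higher and 10 lower of 34 (median 0.09), beside 31.8% and 32.0% of all genes tested, and with total-count scaling 25 higher and 3 lower. The catalytic subunits of the Polycomb complexes differed in direction. Ezh1 had 39.2, 49.7, 59.9 and 50.3 CPM in EMCN+ LT-HSCs and 16.1, 19.3, 22.4 and 15.3 CPM in GMPs, whereas Ezh2 had 59.1, 48.8, 46.2 and 52 CPM against 131, 130, 125 and 123 CPM. Libraries did not overlap at either gene, as at 59.5% of all genes tested. Cbx7, a reader of the Polycomb mark linked to stem cell upkeep, was higher at 20.1 ± 4.46 against 2.76 ± 1.68 CPM.

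Some differences came in runs of neighbouring genes, defined as 6 or more adjacent tested protein-coding genes called in 1 direction with a log2 difference above 1, on GRCm38. The longest were the histone clusters of chromosome 13, with 29 genes lower at chr13:23531050-23764406 and 18 lower at chr13:21715763-21837530. On chromosome 6 a run of 12 genes that were higher held the GIMAP genes, small GTPases of lymphocyte survival (chr6:48626764-48847071), and a run of 8 held Hoxa2 to Hoxa10 (chr6:52162417-52240854). All 8 GIMAP genes were higher (median 6.25), with 154, 175, 183 and 157 CPM at Gimap6 against 4.46, 1.72, 2.39 and 1.96 CPM. Along the Hoxa run the log2 difference was 1.06 at Hoxa7, while Hoxa10 had 850 counts in EMCN+ LT-HSCs and 3 in GMPs (161-fold, 54.9 to 782). Runs of 7 on chromosome 19 and 6 on chromosome 5 held the Ifit and Gbp genes and were higher, and a run of 6 on chromosome 19 held Ms4a genes, Ms4a3 among them, and was lower. Gbp10 has close copies, so its reads may have been shared.

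Genes often used as references were not neutral here. Of 23, 15 were lower in EMCN+ LT-HSCs and 3 higher, with a median of -1.03, which total-count scaling moved to -0.18 without turning it, with 8 lower and 9 higher. Gapdh had 284 ± 19.1 against 709 ± 58 CPM and Ppia 439 ± 58.1 against 1611 ± 116 CPM. Actb did not pass the test, with 1946, 1848, 1696 and 1707 CPM against 2022, 1907, 1815 and 1805 CPM, but was called higher with total-count scaling (0.78).

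**Figure D5:**
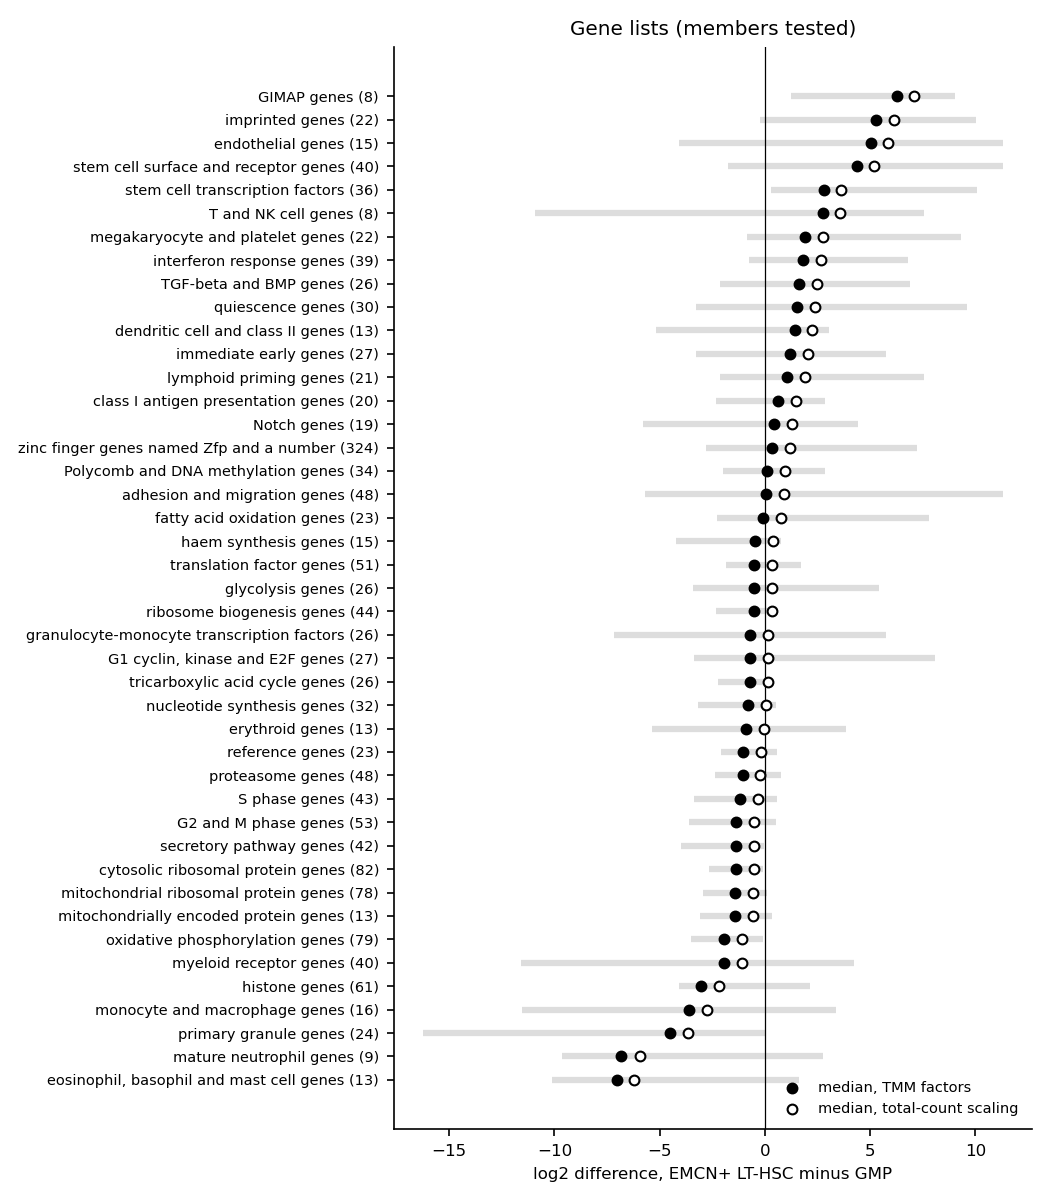
Median log2 difference of the tested members of each gene list with TMM factors (filled) and with total-count scaling (open), the number tested in brackets, and a grey bar from the lowest to the highest member. The stem cell transcription factor and surface lists lie at 2.79 and 4.35 and the primary granule genes at -4.50, and total-count scaling moves every list to the right.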

How the data were processed

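Bulk RNA-seq of 4 EMCN+ LT-HSC and 4 GMP libraries was used. The authors deposited estimated counts per Ensembl gene, whole numbers in the table, from paired reads trimmed with cutadapt and quantified with Salmon per the submitters' processing notes. Their versions and the genome build are not given in the sources used here. Symbols, types, lengths and coordinates came from GENCODE M21 (GRCm38), which matched 54094 of 54347 IDs. The molecule is labelled polyA RNA although the kit is for total RNA, and a cell number is given for the stem cells alone.

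Counts were rounded and filtered with filterByExpr (minimum count 10), leaving 13822 genes, scaled with TMM factors and fitted without a block by edgeR 4.0.16 (R 4.3.3), with Benjamini-Hochberg adjustment. limma 3.58.1 and DESeq2 1.42.0 were alternatives. On simulated data, 67, 67 and 66 of 13822 genes were changed 1.5, 2 and 4-fold, and the fit recovered 28.4, 70.1 and 87.9% of them. Of the 139 genes called there, 15 had not been changed. In the real comparison 63.8% of genes tested were called, a far larger share than was changed in the simulation, so these rates may not hold for it. Libraries with the same number came from the same mouse. Deviations from the group means correlated at a mean of 0.0237 within mice (-0.0607 to 0.0653) and -0.00777 between mice. Shares were tested by exact permutation of libraries between the populations, which did not keep the pairing by mouse. A paired test of the shares was not run.

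The comparison and the gene lists were chosen with earlier results of these data known, and the lists were edited afterwards only to match symbols. Genes to name were set by rule: the sort genes, the 15 largest differences each way with at least 10 CPM, up to 6 members of a list with the largest difference and up to 3 against its direction, the 5 highest genes at 0 in the other population, 5 long noncoding RNAs each way, the 5 highest genes of each population, the 5 with the widest range over mice, and 5 transcription factors each way. Of 171 genes named, 112 met the rule and 59 were chosen after their values were seen. Some items are not reported here. Intervals and floors cover counting error only.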

Additional observations from a re-analysis of the deposited data

Results flagged for a closer look

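In 98 groups of 4 libraries examined for a value that stands apart, among the results given here, 1 was found, and chance gives about 1 in 20. Small abundant noncoding RNAs took 8.40% of the counts in 1 GMP library, against 7.60 to 7.65% in the other 3.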

How the results depend on the processing

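Calls were recomputed with RLE factors, total-count scaling, protein-coding nuclear genes alone, other filters, DESeq2, limma-voom, glmTreat, the mouse as a block, each library left out, and offsets for the trend with exon length, the last added after the data were seen. Total-count scaling moved the counts most: 8559 genes were higher and 1846 lower, and with a log2 difference above 1 5885 were higher and 1046 lower. It turned the medians of granulocyte-monocyte factors (0.16), G1 cyclin, kinase and E2F genes (0.15), ribosome biogenesis (0.31), translation factor (0.34), tricarboxylic acid cycle (0.14), glycolysis (0.31) and nucleotide synthesis genes (0.0414), and of exon length groups 1 (0.28) and 2 (0.76). It also turned Cd34 (0.15), Itgam (0.11), Myb (0.0757), Myc (0.25), Psmb8 (0.0786) and Psmb9 (0.35), and Btg2, Cdkn1a, Cdkn2c, Csf3r, Gda and Mki67 lost their calls. Length-trend offsets turned length groups 3, 4 and 5 (-0.18, -0.23 and -0.26, with the block -0.18, -0.22 and -0.26), erythroid genes (0.0782) and Runx1 (-0.28, with the block -0.27), and a minimum of 5 CPM in 4 libraries turned erythroid genes (1.08). The cause was not tested.

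With the replicate block, 4321 genes were higher and 4332 lower. Of the 171 genes named, mt-Nd6 lost its call under the block and Jun gained one, and the block changed no other call among them. Of 3058 pairs of a named gene and an alternative, 3006 kept the direction and the side of the threshold. Leaving out 1 library gave 8386 to 8777 calls, 4236 to 4629 higher and 4023 to 4357 lower, and with a log2 difference above 1 5249 to 5550, 2755 to 2893 higher and 2488 to 2666 lower. The differences in shares then ran from -0.66 to -0.46 percentage points for mitochondrially encoded proteins, -10.9 to -8.17 for mitochondrial ribosomal RNA and -1.74 to -1.29 for histones, with an exact permutation p of 0.0571 in 9 of the fits, where 0.0286 is the smallest possible. A gene at 0 in a population has a lower bound and no fold, 1 to 3 counts give a ratio with a wide interval, and intervals cover counting error only.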

Other observations

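Several of the more abundant transcripts of EMCN+ LT-HSCs belonged to none of the lists described, and the genes given here were chosen after their values were seen. Adgrg1, an adhesion receptor also called GPR56, had 1011, 1214, 952 and 1023 CPM in EMCN+ LT-HSCs and 106, 62, 95.8 and 91.7 CPM in GMPs. Tgm2, a transglutaminase that cross-links proteins, had 162 ± 26 against 1.36 ± 0.475 CPM (SD, n = 4 each). Col4a1, a collagen chain of basement membranes, had 97.1 ± 15.4 against 0.336 ± 0.252 CPM. Dst, a linker of the cytoskeleton, had 257 ± 31.5 against 5.41 ± 1.69 CPM, and Itsn1, a scaffold of endocytosis, 294 ± 34.7 against 9.66 ± 2.86 CPM. The populations did not overlap at these 5 genes, as at 59.5% of all genes tested.

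On the other side, Ccl9, a chemokine of myeloid cells, had 1.11 ± 0.336 CPM in EMCN+ LT-HSCs and 255 ± 15.7 CPM in GMPs. Tmsb4x, which encodes the actin-binding peptide thymosin beta 4, had 166, 137, 163 and 161 CPM against 1212, 1845, 1627 and 1355 CPM. Nin, a centrosomal protein that anchors microtubules, had 85.7 ± 10.8 against 688 ± 113 CPM, although its transcript is long. No library of either population overlapped the other at these 3 genes, as at 59.5% of all genes tested.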
